A study of Mus musculus with 7 samples.

Results

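The 5 genes described here belong to the cartilage programme and were read in hearts of mouse embryos: Col2a1, Col9a1, Col9a2, Mia and Sox5. They are 5 of 7409 genes that could be named on the arrays and are read by 6 of 24048 targets, the bead-bound oligonucleotides of an Illumina mouse reference BeadChip. A target was assigned to a gene by the NCBI Gene ID inside its identifier. The genes were chosen by their measured signals on these same arrays, which stood high together on 1 of them, Myc-null 2. Their levels on that array are therefore given as a description and carry no test.

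The study compared Myc-null hearts (n = 4) with wild-type hearts (n = 3), each sample on its own array, in embryos that the titles place at stage E13.5. Another label gives a wider window of stages, and the free-text description speaks of far younger embryos and does not match the titles. Myc is a transcription factor that promotes cell growth and proliferation. The labels name no promoter, Cre line, strain or litter for the Myc deletion, and no treatment, and they describe whole dissected hearts although the RNA is called that of cardiac myocytes. Nothing in them says that the hearts of a group came from separate litters, so p-values measure the spread between these 7 samples only. Myc was detected on 0 of 7 arrays (-22.9 ± 2.91 in Myc-null, SD, n = 4, and -18.0 ± 14.4 in wild-type hearts, SD, n = 3), so the genotype has no check here. All values are the authors' rank-invariant normalized signal intensities on a linear scale, which can be negative, unless log2 is stated. For log2 values, signals under a floor of 58.2 were first set to it.

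In cartilage, the transcription factor Sox9 acts together with Sox5 and Sox6 to switch on the matrix genes of chondrocytes. Type II collagen, encoded by Col2a1, forms the thin fibrils of that matrix, type IX collagen coats them, and Mia, also called cartilage-derived retinoic acid-sensitive protein, is secreted by chondrocytes. Precursors of the heart valves use part of the same programme, and the trachea, the bronchi and the ribs, which lie beside the heart in the chest, form true cartilage. A whole-heart sample cannot tell fewer cells of a type apart from less RNA per cell.

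The arrays were not equally alike. Wild-type 3 correlated with the other arrays across tested targets at 0.926 to 0.938, whereas each other array reached at least 0.973 with its closest partner. On wild-type 3, 838 of 9441 tested targets lay at least 1 (log2) below their 7-array median and 89 at least 1 above it. On Myc-null 2, 150 lay as far above (1.59%) and 102 as far below, and the other 5 arrays had at most 22 in either direction. Between 8573 and 9678 targets were detected per array. The genotype differences of the 5 genes are also given without Myc-null 2, without wild-type 3 and without both. So are the median differences of the lists of cartilage regulators, epithelium, valve mesenchyme and erythroid genes. All 7 arrays were on 1 chip, wild-type at positions A to C and Myc-null at E to H, so position and genotype cannot be told apart.

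The label of the gene group could be checked only in part. Col2a1, Col9a1 and Col9a2 were detected on 7 of 7 arrays, and so was the brighter of the 2 Sox5 targets, while Mia was detected on 3 arrays and the dimmer Sox5 target on 0. Of 21 further cartilage matrix genes listed, 4 had a named target. Col11a1, a collagen that copolymerises with type II, the matrilin gene Matn3 and the lubricin gene Prg4 were detected on 0 arrays. Col27a1, a fibrillar collagen of cartilage, was detected on 3, with signals of 74.5 in Myc-null 2, 54.2 in wild-type 2 and 45.2 in wild-type 3. Acan and Sox9 had no named target. The hearts carried the message of heart muscle, since Myh7, the slow myosin heavy chain, ran from 43607 to 72119 in Myc-null and from 42505 to 68137 in wild-type hearts. Of 8 contractile and calcium-handling genes with a named target, 7 were detected on all 7 arrays.

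Col2a1 (chromosome 15, 97975602 to 98004724 in GRCm38.p6) encodes the chain that makes up type II collagen. Its signal was 309, 1698, 148 and 93.7 in Myc-null hearts 1 to 4, against 105, 134 and 381 in wild-type hearts 1 to 3. Myc-null 2 stood 4.45 times above the next array, wild-type 3, and 11.5 times above the 7-array median of 148. Wild-type 3 and Myc-null 1 formed a middle step, and the remaining 4 arrays lay between 93.7 and 148. All 3 wild-type values lay within the Myc-null range, and 1 of the 4 Myc-null values lay above every wild-type array. Each target is read by many beads, and the bead spread column of the files, put on the deposited scale, was 36.6 for Myc-null 2, 17.6 for wild-type 3 and 16.6 for Myc-null 1. The gaps between these 3 arrays and down to the fourth exceeded that spread, whereas wild-type 1 and Myc-null 4 differed by 11.1, within it.

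Type IX collagen carries its chains on the surface of the type II fibrils. Col9a1 (chromosome 1, 24177589 to 24252738) had signals of 106, 589, 82.2 and 96.7 in Myc-null hearts 1 to 4, against 79.0, 96.4 and 172 in wild-type hearts 1 to 3. Col9a2 (chromosome 4, 121039566 to 121055325) had 187, 606, 106 and 186 in Myc-null hearts, against 109, 126 and 240 in wild-type hearts. Both genes were highest in Myc-null 2 and next in wild-type 3, and both gaps were wider than the bead spread. Myc-null 2 stood 3.42 times above wild-type 3 for Col9a1 and 2.52 times for Col9a2. Below these 2 arrays the chains parted. For Col9a1 the other 5 arrays lay between 79.0 and 106, with each step within the bead spread. For Col9a2, Myc-null 1 and Myc-null 4 shared a level of 187 and 186 and stood above the other 3 arrays, which lay between 106 and 126.

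Mia (chromosome 7, 27179741 to 27181149) was the member closest to an on and off pattern. Its signal was 55.4, 595, -1.79 and 3.62 in Myc-null hearts 1 to 4, against 3.07, 3.75 and 96.7 in wild-type hearts 1 to 3. It was detected on Myc-null 1, Myc-null 2 and wild-type 3, the same arrays on which Col2a1 was highest. On the other 4 arrays it was not told apart from the negative controls, and the steps between them were within the bead spread. Myc-null 2 stood 6.15 times above wild-type 3. Because Myc-null 1 lay just under the floor, 5 of the 7 arrays share 1 value on the log2 scale.

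Sox5 (chromosome 6, 143828425 to 144782287), the transcription factor among the members, was nearly level. Its brighter target gave 158, 208, 153 and 120 in Myc-null hearts 1 to 4, against 164, 162 and 168 in wild-type hearts 1 to 3. Myc-null 2 was highest, 1.24 times wild-type 3, and Myc-null 4 was lowest. The 5 arrays between them lay from 153 to 168, each step within the bead spread. Its second target ranged from 11.9 to 39.0 in Myc-null and from 19.5 to 29.2 in wild-type hearts and was detected on 0 arrays, so it gives no second reading.

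**Figure D1:**
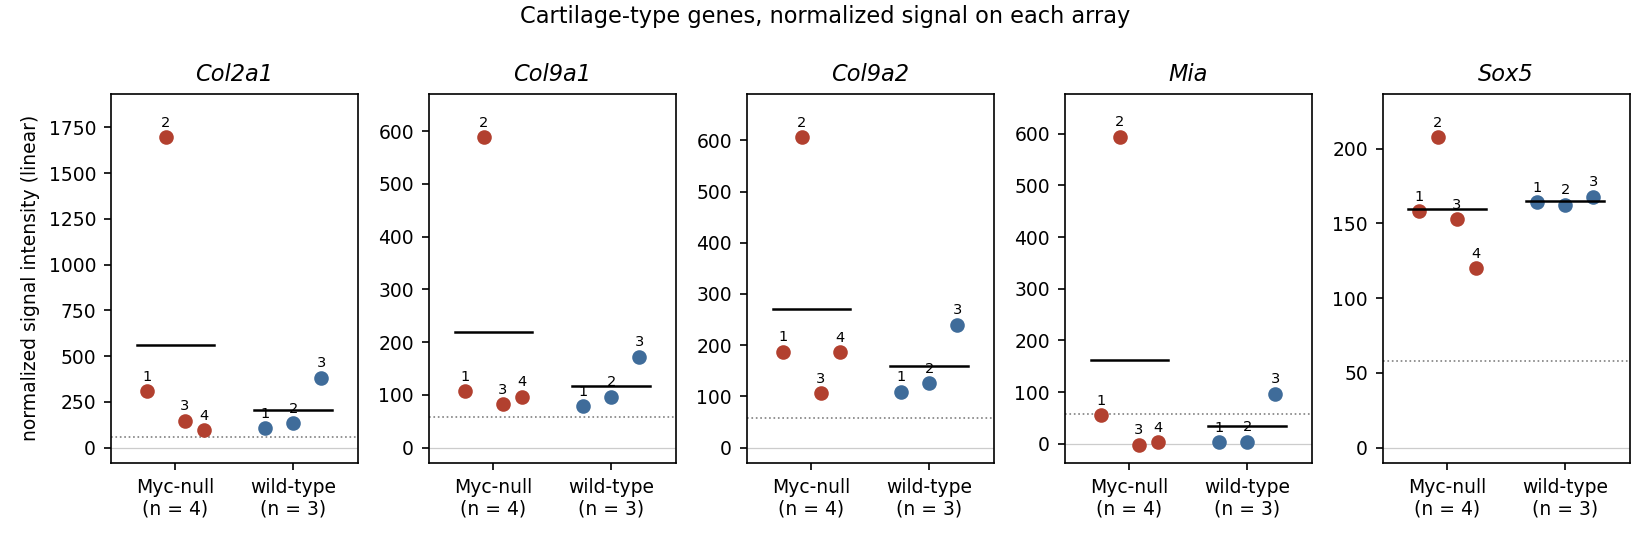
Normalized signal intensity (linear axis, a separate scale for each gene) of the 5 cartilage-type genes on the 4 Myc-null and 3 wild-type arrays. Points are single arrays numbered by replicate, black lines are group means, and the dotted line is the floor of 58.2. Myc-null 2 is the highest point in every panel, and wild-type 3 is the next in each.

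The 3 matrix genes besides Col2a1, namely Col9a1, Col9a2 and Mia, are shown by their promoters, because SOX proteins are known to bind a short core in such genes. The sequences are the 250 bases before the transcription start from RefSeq (GRCm38.p6), which had an entry for 4 of the 5 genes. Capitals mark CAAAG or its reverse complement CTTTG, the core of the SOX motif. CAATG and its reverse complement were searched as well.
Col9a1, chr1:24177360-24177609, plus strand: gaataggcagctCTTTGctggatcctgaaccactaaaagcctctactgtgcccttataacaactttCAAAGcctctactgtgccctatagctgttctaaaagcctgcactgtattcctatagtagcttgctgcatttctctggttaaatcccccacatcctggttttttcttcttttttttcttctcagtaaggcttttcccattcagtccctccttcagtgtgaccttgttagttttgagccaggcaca
Col9a2, chr4:121039316-121039565, plus strand: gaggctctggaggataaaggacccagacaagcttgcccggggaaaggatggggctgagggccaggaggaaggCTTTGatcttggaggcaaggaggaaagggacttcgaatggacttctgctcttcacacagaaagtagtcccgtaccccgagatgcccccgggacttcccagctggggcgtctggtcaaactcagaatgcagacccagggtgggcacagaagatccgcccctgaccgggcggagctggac
Mia, chr7:27181150-27181399, minus strand: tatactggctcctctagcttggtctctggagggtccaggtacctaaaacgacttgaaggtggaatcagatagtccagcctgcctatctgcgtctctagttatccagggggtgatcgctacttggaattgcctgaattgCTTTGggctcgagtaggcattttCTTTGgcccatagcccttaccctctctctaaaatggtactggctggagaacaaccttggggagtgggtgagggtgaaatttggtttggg

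Col9a1 held 2 matches, starting 238 and 184 bases before the start, Col9a2 held 1 at 178, and Mia held 2 at 112 and 89. The second Col9a1 promoter in the table held 0, and the Sox5 promoter held 1 match of CAATG. Over 32851 promoters of the same length, 65.0% held at least 1 of these cores on either strand and 30.6% held at least 2, so matches of this kind are common. The longer forms ACAAAG and ACAATG, which 25.2% of promoters hold on either strand, were in none of the 3 sequences printed, while the Sox5 promoter holds ACAATG. That Sox5 sequence (143947107 to 143947356, minus strand) lies within the gene span of 143828425 to 144782287, far from its outer start. The Col9a1 sequence printed ends at 24177609, just inside the gene span that begins at 24177589. A match is a run of letters and no evidence of binding.

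Across the 7 arrays the 4 strongly varying members kept 1 order at the top. On the log2 scale Myc-null 2 lay above the 7-array median by 3.52 for Col2a1, 2.61 for Col9a1, 1.70 for Col9a2, 3.35 for Mia and 0.36 for Sox5. Wild-type 3 lay above it by 1.37, 0.83, 0.37, 0.73 and 0.05 in the same order of genes. All 5 members had Myc-null 2 highest and wild-type 3 next. Myc-null 2 was highest for 18.9% of tested targets, and in 28.4% of those wild-type 3 came next (5.37% of all tested targets). The first of these shares belongs to the contrast by which the genes were picked, and nothing is read from it. Among the 150 targets at least 1 above their median on Myc-null 2, wild-type 3 came next in 85 (56.7%), so this order was common there.

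Measured from the 7-array median, the excess of wild-type 3 was a similar share of that of Myc-null 2 in the matrix genes. On the linear scale Col2a1 exceeded its 7-array median by 1550 in Myc-null 2 and by 233 in wild-type 3, which is 15.1% as much. The same share was 15.4% for Col9a1, 12.9% for Col9a2 and 15.7% for Mia. It was 11.9% for Sox5, where the excess of wild-type 3 was 5.39 and within the bead spread. On Myc-null 1 the shares were uneven, 10.4% for Col2a1 and 8.73% for Mia but 1.99% for Col9a1 and 0.248% for Col9a2. These shares depend on the baseline, and no common proportion is read from them. For Col9a2 the median of 186 is the Myc-null 4 value, well above its lowest arrays, at 106 to 126. On Myc-null 1 Col9a2 stood at 187, also above those arrays, so its small share there does not mean a low signal. Col9a1 on Myc-null 1 lay within the bead spread of the next array.

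Pearson's r of log2 signal between Col2a1 and the other members over the 7 arrays of this chip was 0.95 for Col9a1, 0.91 for Col9a2, 0.91 for Mia and 0.80 for Sox5. Without Myc-null 2, over 6 arrays, it was 0.80, 0.64, 0.69 and 0.53. Col9a1 and Mia kept the closest likeness, 0.98 over 7 arrays and 0.92 over 6, although 5 of the arrays share the floor value of Mia. Between Col9a2 and Sox5 r was 0.56 over 7 arrays and -0.16 over 6. These are descriptions of few points, of which 1 array sets much of the value.

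**Figure D2:**
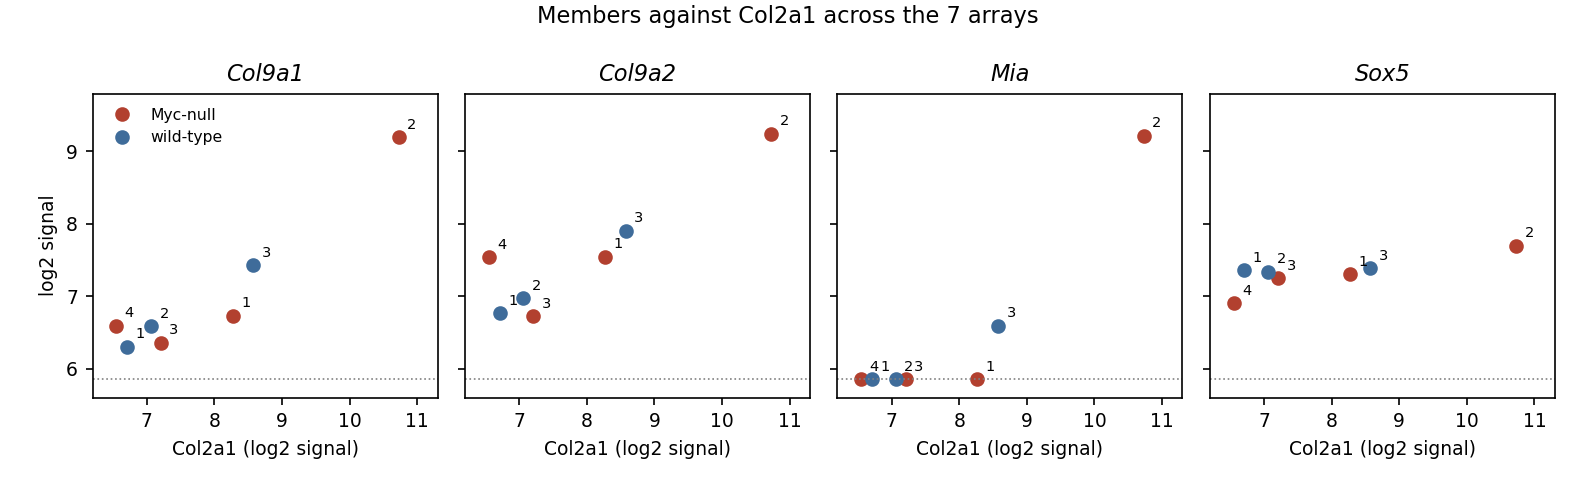
Log2 signal of Col9a1, Col9a2, Mia and Sox5 (vertical axes) against log2 signal of Col2a1 (horizontal axes) on the 7 arrays, with Myc-null arrays in red and wild-type arrays in blue, numbered by replicate. The dotted line is the floor, where 5 arrays of Mia lie. Myc-null 2 sits alone at the upper right of each panel, followed by wild-type 3.

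The comparison of Myc-null with wild-type hearts asks which transcripts depend on Myc in the embryonic heart, and for these genes it gave no call. Mean signals were 562 ± 763 in Myc-null and 207 ± 152 in wild-type hearts for Col2a1, 219 ± 247 and 116 ± 49.6 for Col9a1, and 272 ± 226 and 158 ± 71.3 for Col9a2 (SD, n = 4 and n = 3). For Mia they were 163 ± 289 in Myc-null and 34.5 ± 53.9 in wild-type hearts, and for Sox5 160 ± 36.2 and 165 ± 2.75. In the Myc-null group the SD exceeded the mean for Col2a1, Col9a1 and Mia. The 4 matrix genes had higher and Sox5 a lower Myc-null mean.

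By limma with Benjamini-Hochberg adjustment over 9441 targets, 0 of the 5 tested members passed an adjusted p of 0.05 and 0% of all targets did. At an unadjusted p under 0.05 there were 0 members and 5.40% of all targets. The log2 difference, Myc-null minus wild-type, was 0.74 for Col2a1 (SE 1.03, 95% interval -1.71 to 3.19, limma adjusted p = 0.86) and 0.45 for Col9a1 (SE 0.72, 95% interval -1.28 to 2.17, limma adjusted p = 0.885). It was 0.55 for Col9a2 (SE 0.60, 95% interval -0.88 to 1.98, limma adjusted p = 0.827), and 0.59 for Mia (SE 0.88, 95% interval -1.50 to 2.69, limma adjusted p = 0.871). Sox5 had -0.07 (SE 0.18, 95% interval -0.50 to 0.36, limma adjusted p = 0.929). All 5 intervals hold 0, and those of the 4 matrix genes are several times wider than that of Sox5. The groups overlapped for all 5 members, and failed to overlap for 6.75% of all tested targets. The median difference of the 5 was 0.55, against 0.03 over all tested targets, whose median SE was 0.18.

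These differences rested on Myc-null 2. Without it the log2 difference was -0.11 for Col2a1, -0.21 for Col9a1, 0.05 for Col9a2, -0.24 for Mia and -0.21 for Sox5, with a median of -0.21. Without wild-type 3 it was 1.30, 0.78, 0.89, 0.84 and -0.06 in the same order. Without both arrays it was 0.46, 0.12, 0.40, 0.00 and -0.19, and in that setting all 5 remaining arrays of Mia lay at the floor. No member passed the adjusted threshold in any of these fits.

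**Figure D3:**
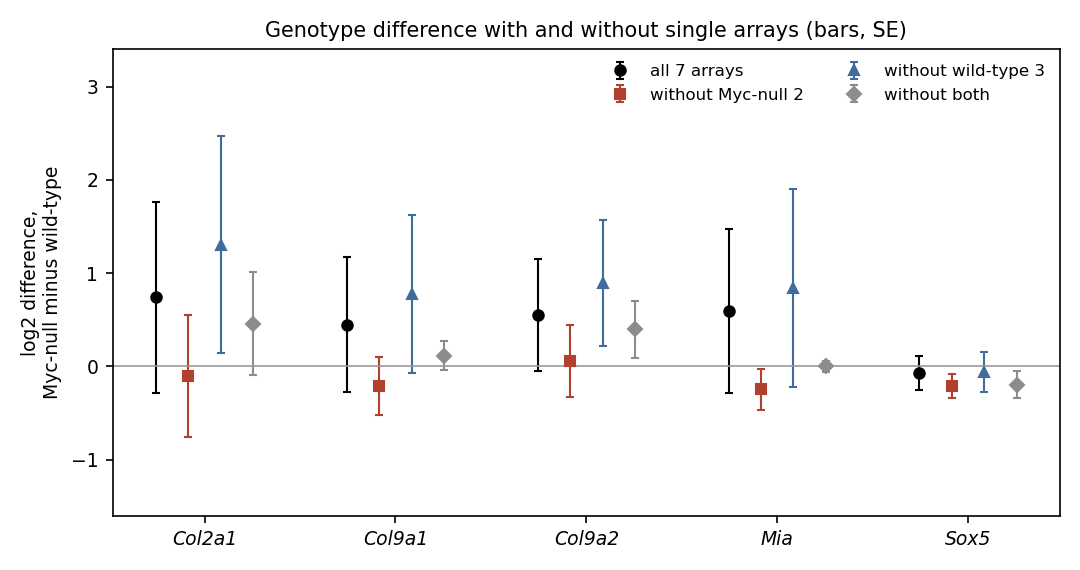
Log2 difference, Myc-null minus wild-type, of the 5 cartilage-type genes from limma fits on all 7 arrays, without Myc-null 2, without wild-type 3 and without both (bars, standard error). Without Myc-null 2 the values of Col2a1, Col9a1 and Mia lie below 0, and without wild-type 3 those of the 4 matrix genes are larger than with all arrays.

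Col2a1 had a score of 4.58 in the authors' deposited table, Col9a1 3.99, Col9a2 4.98 and Mia 4.25. The authors' deposited table gives -0.241 for the brighter and 0.450 for the dimmer Sox5 target. Its header does not name the direction, and for the 5 tested targets the sign is that of the Myc-null minus wild-type difference above.

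Regulators of the cartilage programme were partly readable, with 12 of 22 listed genes named on the array, 7 detected on at least 1 array and 3 tested. All 3 tested genes averaged higher in Myc-null hearts, 0 passed the adjusted threshold and 1 had an unadjusted p under 0.05. Their median log2 difference was 0.17, and it was -0.16 without Myc-null 2, 0.52 without wild-type 3 and 0.19 without both. Trps1, a zinc finger repressor of chondrocyte maturation, had signals of 100, 342, 129 and 124 in Myc-null hearts 1 to 4, against 79.8, 73.7 and 63.9 in wild-type hearts 1 to 3. It was highest in Myc-null 2 like the members, but lowest in wild-type 3, and its groups did not overlap (log2 difference 1.08, SE 0.42, limma adjusted p = 0.764). The difference of Trps1 was 0.70 without Myc-null 2, 0.996 without wild-type 3 and 0.61 without both, with limma adjusted p of 0.816, 0.931 and 0.977.

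Wwp2, a ubiquitin ligase whose gene hosts a cartilage microRNA, followed the members more closely. Its signal was 385, 839, 336 and 291 in Myc-null hearts, against 293, 293 and 617 in wild-type hearts. Pth1r, the receptor of parathyroid hormone-related peptide in the growth plate, had 144, 239, 127 and 135 in Myc-null and 158, 128 and 170 in wild-type hearts. Both were highest in Myc-null 2 and next in wild-type 3. Fgfr3, a receptor that restrains growth plate chondrocytes, was detected on Myc-null 2 and wild-type 2 alone, at 46.4 and 56.5, under the floor. Sox6, the partner of Sox5, Pax1, a factor of the cells that form the vertebrae, and Bmpr1b, a receptor for bone morphogenetic proteins, were each detected on 1 array; they lie outside the rule for named genes and were named after their values were seen. Runx2, Runx1, Barx2, Gdf5 and Ptch1 were detected on 0 arrays.

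Genes whose pattern was most like that of Col2a1 were ranked by r over the 7 arrays, among 936 named genes detected on at least 1 array whose log2 signal ranged over at least 1. The first 8 were Ly6h (0.97), Neurl1a (0.97), Aard (0.97), Wwp2 (0.96), Ntn3 (0.95), Lst1 (0.95), Col9a1 (0.95) and Smo (0.95). Mia ranked at 19 and Col9a2 at 23. Over the 6 arrays without Myc-null 2 the first 8 of 783 were Mup3, Ntn3, Ly6h, Wwp2, Dlk1, Men1, Zkscan17 and Tuba3a, with r from 0.95 for Mup3 to 0.85 for Tuba3a. In that ranking Col9a1 was at 16 and Col9a2 at 72, and Mia was not ranked because its log2 signal ranged over less than 1. Mup3 lay under the floor on Myc-null 2, at 35.6. Ly6h, Wwp2 and Ntn3 were in both groups of 8.

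Ly6h, a membrane-anchored protein of the Ly6 family, had 99.5, 271, 81.5 and 64.3 in Myc-null hearts 1 to 4, against 76.6, 91.8 and 157 in wild-type hearts 1 to 3. Ntn3, a netrin, had 165, 343, 121 and 110 in Myc-null and 115, 116 and 266 in wild-type hearts. Their Myc-null 2 values lay 1.56 and 1.50 (log2) above the median, less than those of Col2a1, Col9a1, Col9a2 and Mia. Smo, the transducer of Hedgehog signals, had 502, 762, 457 and 414 in Myc-null and 368, 407 and 647 in wild-type hearts, and lay 0.74 above its median in Myc-null 2. Dlk1, a membrane protein of mesenchymal progenitors, had 2002, 5337, 1285 and 1350 in Myc-null and 1371, 1536 and 4136 in wild-type hearts. It lay 1.80 above its median in Myc-null 2 and 1.43 in wild-type 3 (log2), more than Col9a2 on both arrays.

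Markers of tissues that lie beside the heart were read on the same arrays. Of 18 airway and gut epithelial genes listed, 6 had a named target and 4 were detected. Nkx2-1, the transcription factor of lung, tracheal and thyroid epithelium, was detected on Myc-null 2 and wild-type 3 alone. Its signal was 34.2, 386, -12.1 and -18.9 in Myc-null hearts 1 to 4, against -12.2, -16.0 and 110 in wild-type hearts 1 to 3. On the other 5 arrays it was not told apart from the negative controls.

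Keratins of simple epithelium, which the outer layer of the heart also makes, did not share 1 pattern. Krt8 had 108, 352, 84.3 and 65.8 in Myc-null and 118, 172 and 426 in wild-type hearts. Krt18 was highest in Myc-null 2 and next in wild-type 3, at 220 and 216, but wild-type 2 was close behind at 212. Krt18 and Krt19 stood 0.34 above and 0.18 below their median in Myc-null 2 (log2). Sox2 and Elf3 were detected on 0 arrays. The summed signal of the 4 detected genes ran from 243 to 1047 in Myc-null hearts, with Myc-null 2 highest, and from 398 to 921 in wild-type hearts. Nkx2-1 entered this sum only through its detection on Myc-null 2 and wild-type 3, at 386 and 110. The order of the arrays in the sum was therefore partly set by the filter, and nothing is read from it. The 3 tested keratin genes were lower on average in Myc-null hearts (median -0.69, log2), 0 of them passed the adjusted threshold by limma and 1, Krt19, had an unadjusted p under 0.05. The median was -0.76 without Myc-null 2, -0.36 without wild-type 3 and -0.55 without both.

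Of 14 skeletal muscle genes listed, 3 had a named target and 2 were detected. Chrna1, the alpha subunit of the muscle acetylcholine receptor, was detected on Myc-null 2 alone, with 24.6, 242, -17.1 and 13.8 in Myc-null hearts 1 to 4, against 8.19, -7.30 and 13.7 in wild-type hearts 1 to 3. Chrng, its fetal gamma subunit, had 94.0, 360, 44.9 and 27.2 in Myc-null and 29.2, 73.3 and 74.0 in wild-type hearts. Both were far above the other arrays in Myc-null 2 and not raised in wild-type 3. Their sum ran from 41.0 to 602 in Myc-null and from 37.4 to 87.8 in wild-type hearts. Chrna1 entered this sum only through its detection on Myc-null 2, so the sum was partly set by the filter and nothing is read from it. Actn3 was detected on 0 arrays.

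Of 12 bone and perichondrium genes listed, 4 had a named target. Spp1, which encodes osteopontin, was the single one detected, on Myc-null 2 alone, at 82.7. Its value on the other arrays was at most 44.2 in Myc-null and at most 16.5 in wild-type hearts. Bglap and Alpl were among those detected on 0 arrays. Of 15 neural crest and glial genes listed, 5 had a named target and 2 were detected. Gap43, a protein of growing axons, had 354, 452, 368 and 380 in Myc-null and 365, 399 and 452 in wild-type hearts. Tfap2a was detected on wild-type 3 alone, at 35.8, and Foxd3 and Dct were among those detected on 0 arrays. The sums of Gap43 and Tfap2a were 367 to 465 in Myc-null and 370 to 488 in wild-type hearts, where Tfap2a entered only through its detection on wild-type 3. The part that any neighbouring tissue had in the signals of the cartilage-type genes was not tested.

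Valve and cushion mesenchyme is a tissue of the heart that uses some of these genes. Of 29 listed genes 14 had a named target, 13 were detected and 12 were tested, of which 5 had higher and 7 lower Myc-null means. By limma 0 of the 12 passed the adjusted threshold and 1 had an unadjusted p under 0.05. The median of the 12 log2 differences was -0.03, and it was -0.17 without Myc-null 2, 0.22 without wild-type 3 and 0.10 without both. Summed signal ran from 13544 to 21513 in Myc-null hearts, with Myc-null 2 at 19733, and from 18041 to 28804 in wild-type hearts. Postn was detected on 0 arrays.

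All 5 detected collagens of this list (Col1a1, Col1a2, Col3a1, Col5a1 and Col6a1) were lower in Myc-null 2 than in wild-type 3, and Col1a1, Col3a1, Col5a1 and Col6a1 were highest on these 2 arrays. Col1a1 had 1175, 2718, 1575 and 1412 in Myc-null hearts 1 to 4, against 1246, 1531 and 3505 in wild-type hearts 1 to 3. Col3a1 had 393, 882, 438 and 705 in Myc-null and 279, 380 and 971 in wild-type hearts. Col5a1 had 4093 in Myc-null 2 and 5077 in wild-type 3, its highest values. Eln, which encodes elastin, had 3079, 3845, 7363 and 8084 in Myc-null and 6023, 7671 and 11254 in wild-type hearts, and Myc-null 2 was the second lowest. Dcn, which encodes decorin, ran from 3365 to 4813 in Myc-null and from 3129 to 5021 in wild-type hearts, with 3841 in Myc-null 2 and 3129 in wild-type 3. Between Myc-null 2 and wild-type 3, further genes of the list, named after their values were seen, went in both directions. Vcan, which encodes the cushion proteoglycan versican, had 256 in Myc-null 2 and 42.6 in wild-type 3, Scx, a tendon factor, 180 and 125, and Tgfb2, a growth factor of the cushions, 1216 and 718. Vcan and Scx were highest of the 7 arrays in Myc-null 2. Lower in Myc-null 2 than in wild-type 3 were Fbln1 (223 and 302), Nfatc1 (186 and 275) and Prrx1 (30.7 and 76.5), the last detected on 1 array.

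Contractile genes and globins were read for the same arrays. Summed contractile signal ran from 67466 to 104103 in Myc-null hearts, with Myc-null 2 lowest, and from 66114 to 87775 in wild-type hearts, with wild-type 3 lowest of all 7. Myh7 made up most of these sums, at 43607 in Myc-null 2 and 42505 in wild-type 3. On Myc-null 2 Mybpc3, a thick filament protein, lay 0.64 below its 7-array median (log2), and the mitochondrial creatine kinase gene Ckmt2 1.34 below. On the same array Myh7 lay 0.37 below and Myl7, the atrial myosin light chain, 0.01 above. On wild-type 3 Mybpc3 lay 0.21 below, Ckmt2 0.12 below, Myh7 0.40 below and Myl7 0.09 below. Not all contractile genes were low on these arrays, since Myh6 was at its median in Myc-null 2 and 0.14 above in wild-type 3. Atp2a2 lay 0.05 below in Myc-null 2 and 0.15 below in wild-type 3. Slc8a1, the sodium-calcium exchanger, lay 0.43 below in Myc-null 2 and 0.63 below in wild-type 3. The 5 erythroid genes summed to between 84731 and 122152 in Myc-null hearts, with Myc-null 2 highest, and to between 77481 and 92921 in wild-type hearts. By limma 0 of the 7 contractile and 0 of the 5 erythroid genes tested passed the adjusted threshold, with 5 and 5 higher on average in Myc-null hearts. The median log2 difference of the erythroid genes was 0.37. It was 0.12 without Myc-null 2, 0.42 without wild-type 3 and 0.18 without both. Hba-x and Hbb-y, the embryonic globins, lay 2.25 and 1.06 above their medians in Myc-null 2, and 0.01 above and 0.05 below in wild-type 3. The rise was not limited to them, since Hbb-b1 lay 1.21 above its median in Myc-null 2 and 0.82 above in wild-type 3. Hbb-b2 lay 0.35 above in Myc-null 2 and at its median in wild-type 3. Hba-a1 was at its median in Myc-null 2 and 0.29 below in wild-type 3. The part of contractile and erythroid genes in the signals of the cartilage-type genes was not tested.

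**Figure D4:**
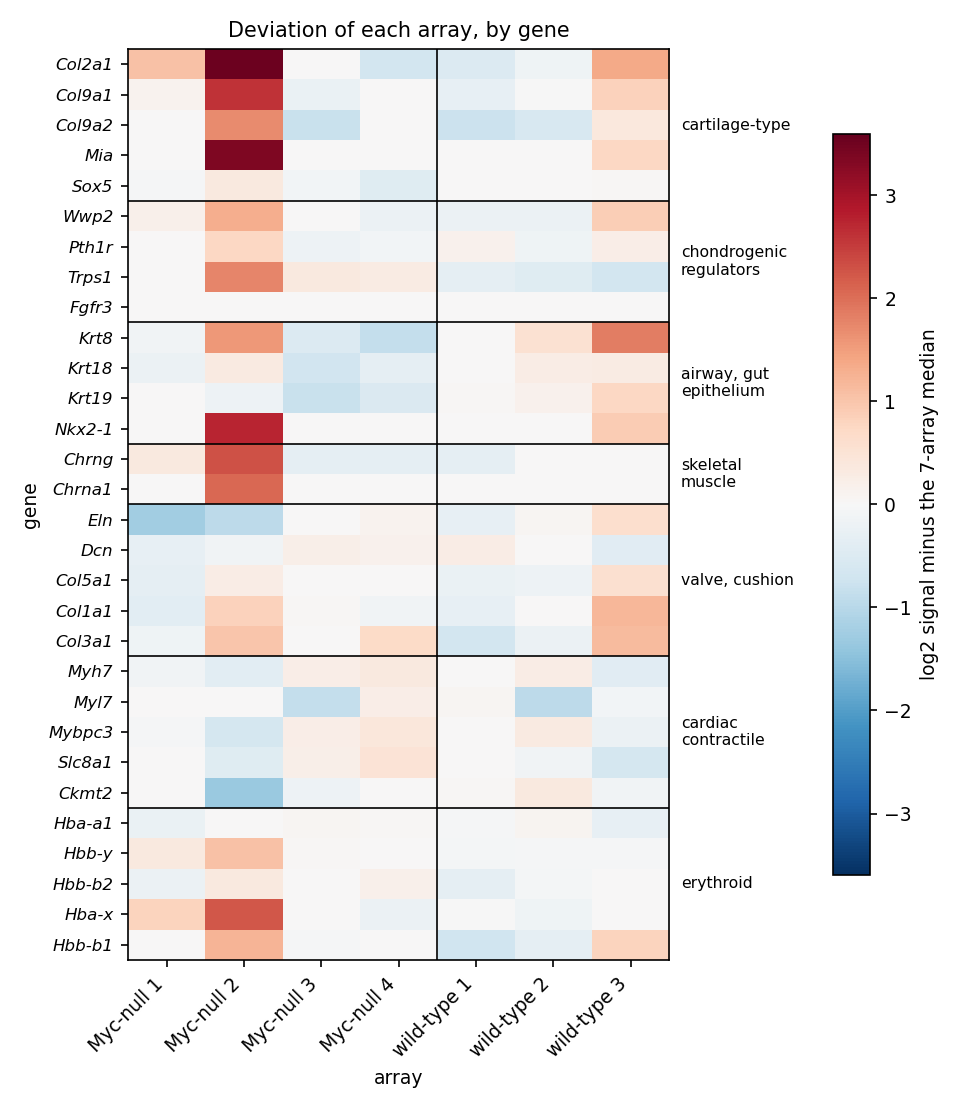
Deviation of log2 signal from the 7-array median (colour) for the cartilage-type genes and for genes named from 6 of the lists (rows), on the 4 Myc-null and 3 wild-type arrays (columns). Myc-null 2 is high for the cartilage-type matrix genes, Nkx2-1 and the acetylcholine receptor subunits Chrna1 and Chrng. It is also high for genes of other lists, among them Trps1, Wwp2, Krt8, Hba-x and Hbb-b1. Wild-type 3 is also high for Col2a1, Nkx2-1, Krt8, Col1a1, Col3a1 and Hbb-b1 but not for Chrna1, Chrng or Hba-x.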

How the data were processed

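Total RNA of each heart sample was hybridised to 1 array of an Illumina mouse reference BeadChip. The authors normalized the deposited matrix of signal intensity by the rank-invariant method in BeadStudio 1.5.0.34, per the labels and the submitters' processing notes. Files of single arrays give unnormalized signal intensity, the spread and number of beads, and a detection score as a fraction (1 minus the detection p-value), per the file headers, which name BeadStudio 1.5.1.3 and no normalization. Deposited and raw signals of an array lay on 1 line (largest deviation 0.113). The authors' deposited table holds 1 difference score per target, per the file headers.

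Gene names come from a lookup of NCBI Gene IDs in target identifiers with 1 or 2 zeros before the number (8884 of 24048 targets, GRCm38.p6 gene table). The members and lists were chosen with earlier results of these data known. Signals under a floor of 58.2 (median over arrays of the 5th percentile among detected targets) were set to it before log2. A target counted as detected from a score of 0.99, and the 9441 targets detected on 3 or more of the 7 arrays were tested with limma 3.58.1 in R 4.3.3 (lmFit, eBayes, 2-sided). Fold changes on this scale understate changes of dim genes. The number of arrays limits the precision. Levels are not compared between targets. The brightest target stands for a gene of a list. Genes named are all members, the 8 most like Col2a1 by Pearson's r over 7 and over 6 arrays, and from each list the brightest detected members and those farthest from the median on Myc-null 2. Steps were tested on simulated data. Alternatives covered normalization, floor, filter, target choice, a replicate block and arrays left out.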

Additional observations from a re-analysis of the deposited data

Results flagged for a closer look

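Dixon's ratio at its 95% critical value was used to ask whether 1 of the 4 Myc-null arrays stood apart in the median deviation of a marker list. The cartilage-type genes were not tested in this way, since they were chosen by their level on Myc-null 2. Of 9 lists, 3 had 1 shared value on the other 3 Myc-null arrays and were not tested. Of the 6 tested, 2 had Myc-null 2 apart: skeletal muscle, with a median deviation of 2.18 (log2) from 2 detected genes, and erythroid genes, with 1.06. Chrna1, 1 of the 2 skeletal muscle genes, entered that median only through its detection on Myc-null 2. The skeletal muscle flag was therefore partly set by the filter, and nothing is read from it. Chance flags about 1 in 20 groups of independent values. These lists share arrays and were chosen with earlier results known.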

How the results depend on the processing

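All 18 alternatives run gave 0 calls among the cartilage-type genes and 0 over all targets, as the main setting did, with smallest adjusted p by limma from 0.214 to 0.977. Targets at an unadjusted p under 0.05 numbered 510, and 327 to 746 across alternatives, the lowest without Myc-null 2. The median log2 difference of the cartilage-type genes was 0.55 and ran from -0.21 (without Myc-null 2) to 0.87 (without Myc-null 3). Without Myc-null 2 the differences of Col2a1 (-0.11), Col9a1 (-0.21) and Mia (-0.24) turned negative. That of Sox5 turned positive without Myc-null 4 (0.056). Without wild-type 3 Col2a1 was at 1.30 and Col9a1 at 0.78. Col9a2 stayed positive in all 18, from 0.05 to 0.89. Normalizing the raw signal anew, by quantiles, by medians or with normexp background, gave a median of 0.33, 0.28 and 0.39, and 2 other floors left it at 0.55. Mia, detected on 3 arrays, was not tested where detection on all 7 was asked for.

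The replicate numbers did not pair the samples: deviations of same-numbered arrays correlated at 0.175, -0.26 and -0.318. With the replicate number as a block, where Myc-null 4 has no partner, there were 0 calls, the median difference was 0.66, and Sox5 was at 0.056. Leaving arrays out of the medians of the marker lists was chosen after seeing the data. Signal over background limits Mia, which lies at the floor on 5 of 7 arrays.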
